A study of Homo sapiens with 6 samples.

Results

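The 8 genes described here encode the ETS, ERG and PEA3 subfamilies of ETS transcription factors: ETS1 and ETS2 (ETS subfamily), ERG, FLI1 and FEV (ERG subfamily), and ETV1, ETV4 and ETV5 (PEA3 subfamily). They were chosen by gene family, as the rows of the gene-level table whose symbol equals one of these names, and make up 8 of its 35268 named genes. All 8 had a row. Expression was measured by polyA RNA sequencing in Rh30 cells, an established cell line from a fusion-positive rhabdomyosarcoma (FP-RMS), a childhood muscle-lineage tumor driven by the PAX3-FOXO1 fusion factor. For 24 hours the cells of 3 libraries had received 1 µM YK-4-279, dissolved in DMSO, and those of the 3 control libraries the solvent DMSO alone. Both groups were the same line in the same serum-containing medium, so 1 cell line, 1 dose and 1 time stand behind every value. The study asked how YK-4-279 changes gene expression in FP-RMS cells, where ETS1 is 1 of the factors under study.

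ETS factors share a winged helix-turn-helix DNA-binding domain that recognizes a GGAA core, and they differ in the bases flanking it, in their partner proteins and in the signals that reach them. ETS1 and ETS2 are phosphorylated by ERK kinases, which raises their binding to the coactivators CBP and p300. ERG and FLI1 are best known in endothelial and blood-forming cells, and FLI1, ERG and FEV all occur as fusion partners of EWSR1 in Ewing sarcoma. ETV1, ETV4 and ETV5 are induced by receptor tyrosine kinase signaling, are repressed by CIC and are marked for degradation by the ubiquitin ligase COP1. YK-4-279 was described as a small molecule that keeps the Ewing sarcoma fusion EWS-FLI1 from its partner DHX9, an RNA helicase, and was later applied to other ETS factors.

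The genes lie on hg38 at 6 chromosomes, in part as neighbouring pairs. ETS1 (chr11:128458761-128587558, minus strand) and FLI1 (chr11:128686535-128813267, plus strand) are separated by 98.976 kb, and ETS2 (chr21:38805183-38824955, plus strand) and ERG (chr21:38380027-38661780, minus strand) by 143.402 kb, with 0 protein-coding genes annotated between the members of either pair in GENCODE. ETV1 (chr7:13891229-13991425), ETV4 (chr17:43527844-43579620), ETV5 (chr3:186046314-186110318) and FEV (chr2:218981087-218985184) are on the minus strand of their chromosomes.

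The RefSeq promoter table (GRCh38.p14, 250 bases before to 50 after each start) held ETS2, ERG, FEV and ETV1, 4 of the 8 genes. The neighbours ETS2 and ERG are printed because, in these cells, the former was expressed in every library and the latter had no read. The ETS2 windows span chr21:38804933-38805232 and chr21:38805679-38805978 on the plus strand, and the ERG window shown, the most upstream of 4 in the table, chr21:38660618-38660917 on the minus strand. Capitals mark the ETS core, GGAA or its reverse complement TTCC.
ETS2 upstream start: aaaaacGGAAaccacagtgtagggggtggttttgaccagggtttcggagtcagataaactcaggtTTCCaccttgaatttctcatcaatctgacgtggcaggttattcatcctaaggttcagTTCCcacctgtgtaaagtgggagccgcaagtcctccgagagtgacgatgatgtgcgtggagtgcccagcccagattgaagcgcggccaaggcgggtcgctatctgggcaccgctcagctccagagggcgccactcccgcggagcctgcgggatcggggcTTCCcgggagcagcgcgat
ETS2 downstream start: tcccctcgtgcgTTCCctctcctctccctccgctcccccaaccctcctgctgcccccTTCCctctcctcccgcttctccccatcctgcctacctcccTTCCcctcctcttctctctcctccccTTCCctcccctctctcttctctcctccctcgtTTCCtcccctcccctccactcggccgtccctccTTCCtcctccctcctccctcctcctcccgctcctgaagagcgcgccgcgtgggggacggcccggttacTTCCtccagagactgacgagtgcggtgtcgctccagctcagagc
ERG start: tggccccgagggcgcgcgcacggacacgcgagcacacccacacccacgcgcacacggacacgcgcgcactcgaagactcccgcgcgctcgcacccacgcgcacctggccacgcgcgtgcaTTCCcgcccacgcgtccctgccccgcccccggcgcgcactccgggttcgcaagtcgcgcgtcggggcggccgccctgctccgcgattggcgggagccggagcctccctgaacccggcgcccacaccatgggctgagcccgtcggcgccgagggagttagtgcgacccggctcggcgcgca
The windows printed held 4, 7 and 1 cores, and the other ERG windows 6, 2 and 2, so the counts of ETS2 and ERG overlapped. A core on either strand is common, being found in 95.5% of the 35114 promoters of the same length, with a median of 3 matches. As many as 7 occurred in 8.29% of the promoters. The longer ETS site CCGGAAGT, searched on both strands and containing the core, was found in 4.14% of all promoters and in none of the windows of ETS2, ERG, FEV or ETV1. These matches describe letters only, and binding was not measured.

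Among the libraries, DMSO replicate 1 was the least like the rest, with 6.05% mitochondrial reads against 4.74% to 5.03% elsewhere and a mean correlation of 0.989 with the other libraries, against at least 0.992 for each of those. Libraries held 16724650 to 24677433 reads. In the 10699 genes whose mean reached 100, the median coefficient of variation was 7.79% in the DMSO group, 3.08% in DMSO replicates 2 and 3 alone, and 4.21% in the YK-4-279 group. Where leaving out DMSO replicate 1 changed the call of a gene named below, both values are given. The labelled cell type was checked on its markers: 9 of 10 FP-RMS markers passed the filter on low values (a mean of at least 10 normalized counts, that is, reads over a size factor of the library), led by MYOD1, the myogenic determination factor, at 34516 to 39146 normalized counts, while MYF6 had at most 1 read. The summed FP-RMS markers ranged from 64000 to 73029 in DMSO and from 69209 to 72357 with YK-4-279. The 7 blood cell markers summed to just under 5 normalized counts in the highest DMSO library and to 2.17 in the highest YK-4-279 library, and 3 of them, CD68 and HBB included, had no read. Of 9 endothelial markers, 6 passed the filter, and their list summed to 323 to 426 in DMSO and 311 to 334 with YK-4-279, most of it from the receptor gene TEK, which ranged from 165 to 272.

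Of the 8 genes, 6 were expressed at a level that could be tested, that is, they passed the same filter: ETS1, ETS2, FLI1, ETV1, ETV4 and ETV5. ERG and FEV were not. To compare genes with one another, reads were scaled to the length of the canonical transcript and to the library total (RPKM). ETS1 was the most abundant, at an RPKM of 32.1 ± 1.17 (SD over the 6 libraries), followed by ETV4 at 15.7 ± 1.68, ETV5 at 12.4 ± 0.957, ETS2 at 8.96 ± 0.411, ETV1 at 6.93 ± 0.424 and FLI1 at 1.38 ± 0.209. On this per-length scale the libraries' ranges were separate between all neighbours in that order except ETV4 and ETV5, whose ranges overlapped and which were in this order in 5 of 6 libraries. ETS1 also had the highest level per length of all 28 ETS family genes in DMSO, above ELK1 at an RPKM of 24.1, and ETV4, ETV5, ETS2, ETV1 and FLI1 ranked 6th, 8th, 11th, 12th and 18th.

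**Figure D1:**
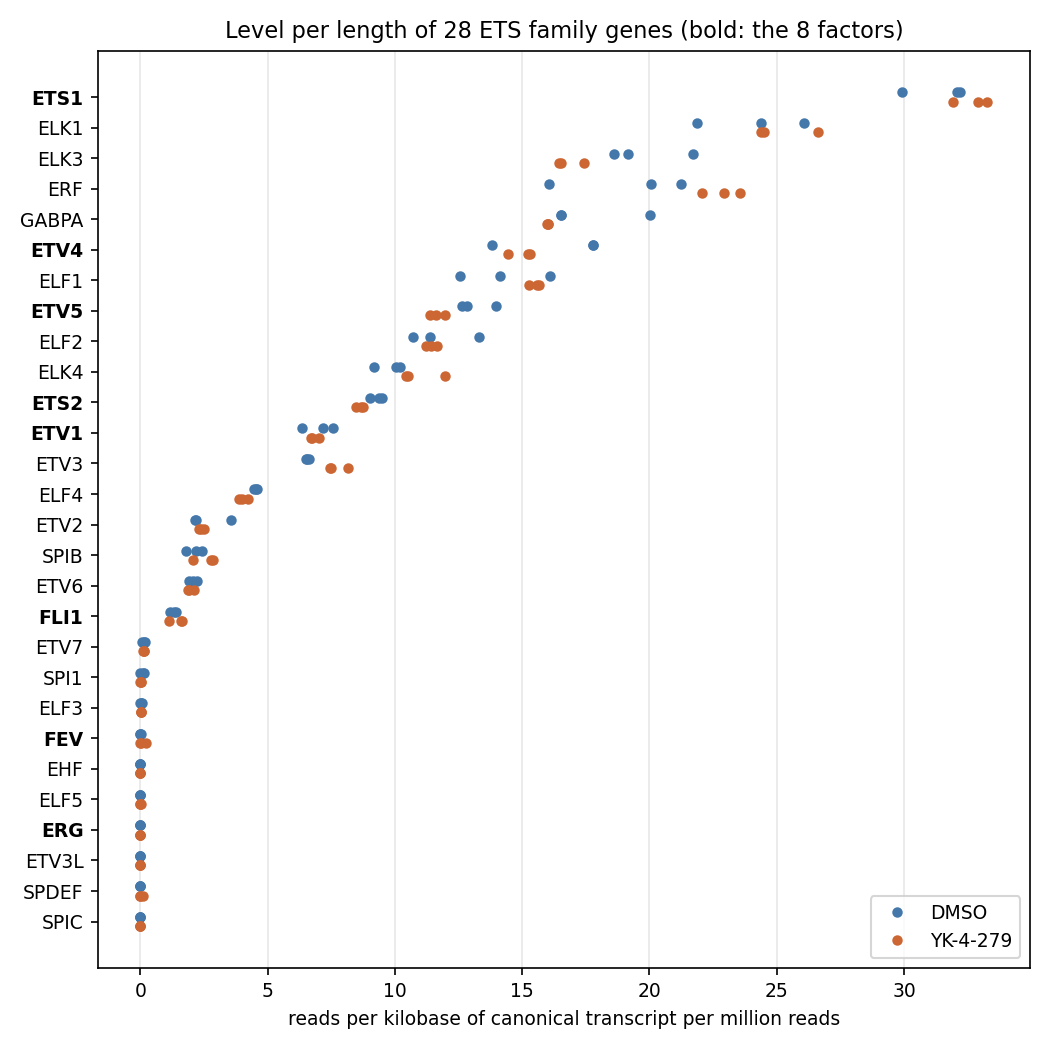
Reads scaled to transcript length and library total (RPKM, x axis, linear) for 28 ETS family genes (y axis, ordered by their DMSO mean), with 1 point per library and the 8 factors in bold. ETS1 lies at the top, at 29.9 to 33.3 over the 6 libraries, FLI1 is the 18th gene, and FEV and ERG lie among the genes at or near 0.

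The 8 factors together made up 36.9% ± 0.852 of the per-length signal of the 28 ETS genes in DMSO and 35.7% ± 0.330 with YK-4-279 (SD, n = 3 each). ETS1 and ETS2 together contributed 19.1% in DMSO and 19.3% with YK-4-279. The PEA3 genes contributed 16.5%, 17.3% and 17.8% in DMSO replicates 1 to 3 and 15.7%, 15.6% and 15.7% with YK-4-279. The PEA3 share was thus lower in every YK-4-279 library than in any DMSO library, and 15.1% of all genes tested showed such a separation in normalized counts. The share also depends on the levels of the other ETS genes.

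None of the 6 genes tested changed with YK-4-279 at an adjusted p under 0.05 (limma, Benjamini-Hochberg over the 13930 genes tested), referred to below as called, where 3.41% of all genes did, 176 of them higher and 299 lower. That split depended on the fit: it was 134 higher and 145 lower with quantile scaling, 499 and 1465 with GC content and length removed, and 30 and 3 without the trend. Two-sided unadjusted p-values under 0.05 were found for 2 of the 6, ETS2 and ETV5, against 18.7% of all genes. On reads recovered from the table, edgeR's quasi-likelihood test called 0 of the 6 factors it tested and DESeq2 0 of 7 after adjustment, and each gave 1 unadjusted p under 0.05, that of ETV5. The fold changes were small in either direction: 4 of the 6 were below 0 and 2 above, with a median of -0.13 on the log2 scale beside -0.01 over all genes tested. ETS2 and ETV5 were lower in every YK-4-279 library than in any DMSO library, 2 of 6 genes against 15.1% of all genes tested. Fewer cells expressing a gene and less RNA per cell cannot be told apart in these bulk samples, and because the sources do not say that replicates came from separate cultures, p-values measure only the spread between these libraries.

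**Figure D2:**
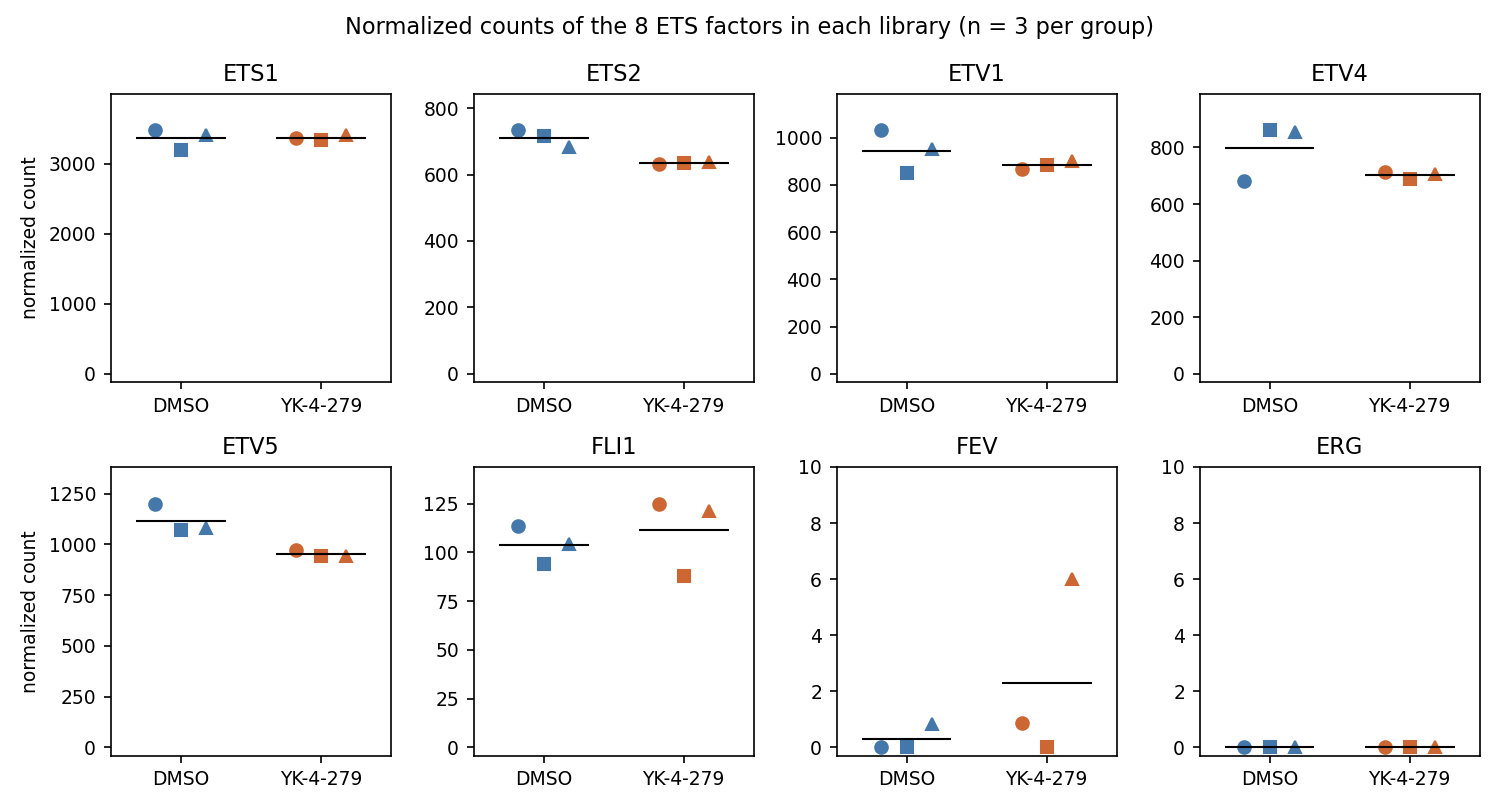
Normalized counts (y axis, linear, each panel with its own scale) of the 8 factors in DMSO and YK-4-279 libraries (x axis). Circles, squares and triangles are replicates 1, 2 and 3 of each group, and lines are group means. ETS2 and ETV5 show no overlap between groups, the DMSO circle of ETV4 lies at 681 below the other 5 libraries, and ERG is at 0 throughout.

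ETS1, the founding member of the family and the factor reported with KDM3A in FP-RMS, showed no detectable change. It had 3478, 3191 and 3410 normalized counts in DMSO replicates 1, 2 and 3 and 3366, 3343 and 3401 with YK-4-279. All 3 treated libraries lay inside the DMSO range. The means were 3359 ± 150 and 3370 ± 29.3 (SD, n = 3 each), and the log2 fold change was 0.01 (SE 0.06, limma adjusted p = 0.974). The 95% confidence interval ran from -0.12 to 0.13, that is, from 7.86% lower to 9.35% higher, so a larger shift of ETS1 mRNA in either direction lies outside it.

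ETS2, its closest paralog, had lower values in all treated libraries. DMSO libraries had 734, 714 and 682 normalized counts, and YK-4-279 libraries 632, 634 and 637. The groups did not overlap, with the highest treated library below the lowest control. The log2 fold change was -0.16 (SE 0.07, 95% confidence interval -0.32 to -0.01), or -10.7%, with a limma adjusted p = 0.250. The log2 ratio of ETS1 to ETS2 was 0.17 higher with YK-4-279, from 2.24 ± 0.0814 to 2.41 ± 0.00894 (SD, n = 3 each), again without overlap. The exact two-sided permutation test gave p = 0.1, the smallest that 3 against 3 libraries allow, and 0.2 after adjustment over 4 pairs.

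The ERG subfamily was barely represented. ERG had 0 reads in each of the 6 libraries, out of 124033363 reads in all. A count of 0 allows up to 3 reads over all 6 libraries, by counting error only. FEV had 0, 0 and 1 read in DMSO replicates 1 to 3 and 1, 0 and 6 with YK-4-279. Its 7 treated reads came almost entirely from replicate 3, and the ratio of group totals, 7.04, had an exact 95% counting interval of 0.904 to 317, with an exact permutation p = 0.4 over the libraries. No difference in FEV was detectable at this depth.

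FLI1, a neighbour of ETS1 in the genome, was present at a low level. It had 113, 93.9 and 104 normalized counts in DMSO and 125, 88.0 and 121 with YK-4-279, from 81 to 146 reads per library. The treated libraries spanned the whole DMSO range, with replicate 2 below it and replicates 1 and 3 above it. The log2 fold change was 0.09 (SE 0.16, 95% confidence interval -0.26 to 0.43, limma adjusted p = 0.814). This interval is the widest of the 6 genes and leaves room for 16.5% less to 34.9% more FLI1 mRNA. Counting error alone, with this number of reads, corresponds to a coefficient of variation of 9.85% in DMSO and 9.28% with YK-4-279, beside observed values of 9.41% and 18.3%.

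The PEA3 genes were all lower on average with YK-4-279, by different amounts and with different certainty. ETV1 had 1033, 851 and 953 normalized counts in DMSO and 867, 885 and 902 after treatment. DMSO replicate 2 was the lowest of all 6 libraries, so the groups overlapped. The log2 fold change was -0.09 (SE 0.08, 95% confidence interval -0.26 to 0.08, limma adjusted p = 0.572).

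ETV4 had 681, 861 and 855 normalized counts in DMSO and 712, 687 and 707 with YK-4-279. DMSO replicates 2 and 3 lay above all treated libraries, and DMSO replicate 1, the least typical library over all genes, lay below them. With all libraries the log2 fold change was -0.18 (SE 0.09, 95% confidence interval -0.38 to 0.02, limma adjusted p = 0.318). Without DMSO replicate 1 it was -0.29, with a limma adjusted p = 6.5e-04, in a comparison in which the number of genes called over the whole table rose from 475 to 1827. Over all genes, 13.1% were called without that library.

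With all 6 libraries, ETV5 had the largest negative fold change of the 6 genes, although ETV4 was lower without DMSO replicate 1 and with the GC content and length correction described below. It had 1202, 1069 and 1080 normalized counts in DMSO and 971, 945 and 942 with YK-4-279. Every treated library lay below every control library. The means were 1117 ± 73.4 and 953 ± 15.6 (SD, n = 3 each). The log2 fold change was -0.23, or -14.6% (SE 0.07, 95% confidence interval -0.38 to -0.08, limma adjusted p = 0.0967). This absolute change exceeded that of 77.4% of all genes tested. ETV5 was also called without DMSO replicate 1, at a smaller log2 fold change of -0.17 (limma adjusted p = 0.0300), since that library held its highest value.

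When the dependence of each library on transcript GC content and length was removed, the same PEA3 genes passed the threshold. ETV4 had a log2 fold change of -0.27 (limma adjusted p = 0.0035) and ETV5 of -0.24 (limma adjusted p = 0.0054). Under that correction 1964 of 13705 genes tested were called, so the 2 factors stand among many more calls. ETS1, ETS2, FLI1 and ETV1 were called under none of the 17 alternatives.

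**Figure D3:**
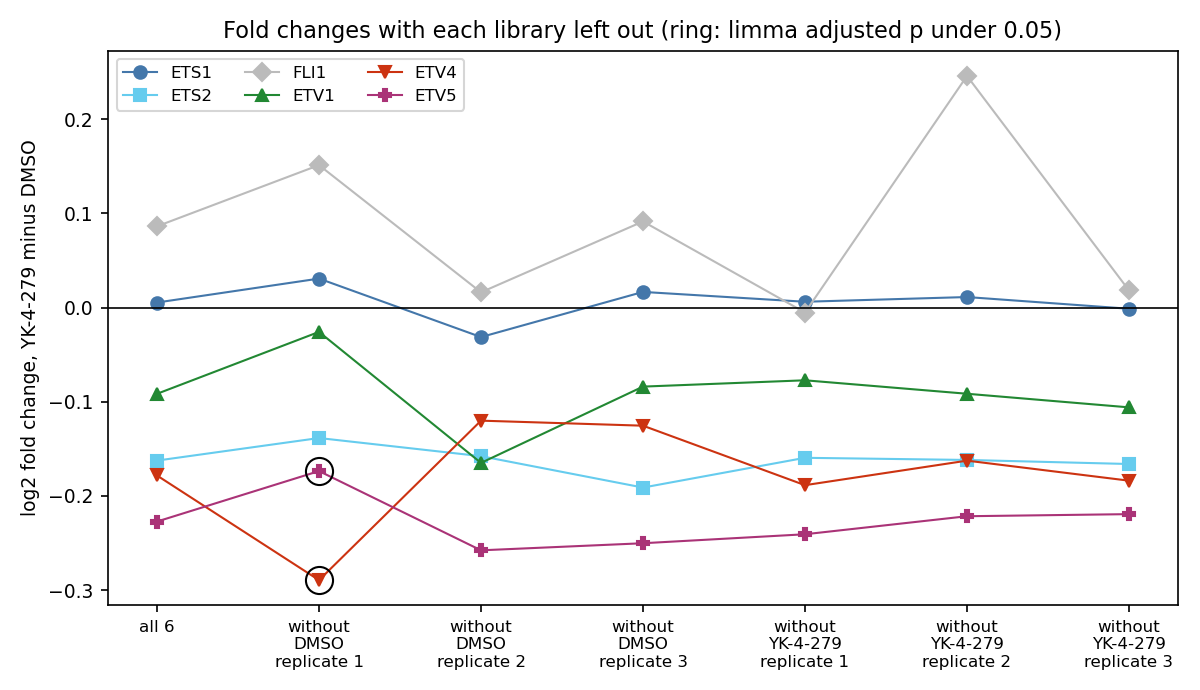
Log2 fold change of YK-4-279 minus DMSO (y axis) for the 6 factors tested, with all 6 libraries and with each library left out (x axis). Rings mark a limma adjusted p under 0.05, which occurs only without DMSO replicate 1, for ETV4 at -0.29 and ETV5 at -0.17. ETS1 and FLI1 cross 0 in some settings, whereas ETS2, ETV1, ETV4 and ETV5 stay below it in all 7.

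Whether the PEA3 genes differed from one another in response was tested on their ratios. The log2 ratio of ETV1 to ETV5 was -0.22, -0.33 and -0.18 in DMSO and -0.16, -0.10 and -0.06 with YK-4-279, 0.14 higher with no overlap (exact permutation p = 0.1, adjusted p = 0.2 over 4 pairs). The ratios of ETV1 to ETV4 and of ETV4 to ETV5 differed by 0.09 and 0.05 and overlapped (exact permutation p = 0.7 and 1). With 3 libraries a group these tests cannot pass 0.05, so a difference in response among the PEA3 genes was not shown.

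The spread of the factors between libraries was larger in DMSO for 5 of the 6 genes tested. Coefficients of variation of ETS1, ETS2, ETV1, ETV4 and ETV5 were 4.47%, 3.68%, 9.61%, 12.8% and 6.57% in DMSO, and 0.869%, 0.465%, 1.99%, 1.92% and 1.64% with YK-4-279. FLI1 was the exception. The YK-4-279 values of these 5 genes were below the counting error of their own reads, which was 1.70%, 3.92%, 3.32%, 3.72% and 3.19%, so the treated libraries' SDs understate the error. Of the 10699 genes above, 74.3% also had the larger coefficient of variation in DMSO. In DMSO replicates 2 and 3 alone, that of ETV4 was 0.525% and that of ETV5 0.738%, both below the treated values. Those of ETS1, ETS2 and ETV1 were 4.70%, 3.27% and 7.94%, still above them. Such values rest on 2 libraries, and those of ETS2, ETV4 and ETV5 lie below their DMSO counting error of 3.77%, 3.52% and 3.01%.

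Across the 6 libraries the log2 values of ETS2 and ETV5 rose and fell together (Pearson's r = 0.945), as did those of ETS1 and ETV1 (r = 0.806), while ETS1 and ETV4 had r = -0.558. These describe 6 libraries that share the drug contrast and the scaling. Among 10698 other genes, those most like ETS1 in pattern were PORCN (r = 0.995), ZDBF2 and RFX7. For ETS2 they were ATP11A (r = 0.9985), CTSV and PIGX, and for ETV5 F2R (r = 0.9988), OIP5-AS1 and SFPQ. Those most like ETV4 included ANKRD52 (r = 0.993) and WSCD1. ETV1 was most like NUDT4 (r = 0.997), PTAR1 and MAPKAPK5, and FLI1 most like TUBG2 (r = 0.990), RSRP1 and NKTR. With so many genes and 6 libraries these values rank likeness and test nothing.

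Annotated overlaps limit how sharply some factors are resolved, as the strand setting of the counting is not given in the sources used here, although the libraries were directional. ETV4 lies within the span of DHX8, an RNA helicase gene on the opposite strand with 2201 to 2969 reads per library. Whether exons of the 2 genes overlap was not examined. ETV5 overlaps DGKG, a diacylglycerol kinase gene on the same strand, which had 7 to 25 reads. The antisense RNAs SENCR in FLI1 and ETS1-AS1 in ETS1 had 0 to 4 and 0 reads, and the microRNA gene MIR6090 within ETS1 had 1 to 6.

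Of the 20 other ETS family genes, 12 passed the filter, and 1 was called, against 3.41% of all genes. ELK3, a ternary complex factor that acts with SRF, fell. It had 1922, 1672 and 1611 normalized counts in DMSO and 1383, 1409 and 1456 with YK-4-279, without overlap. Its log2 fold change was -0.29 (SE 0.07, limma adjusted p = 0.0487), and it was called in 8 of 17 alternatives (adjusted p-values of 0.0014 to 0.258). Leaving out DMSO replicate 3 or any YK-4-279 library ended the call. Without DMSO replicate 1 there were 4 calls (13.1% of all genes in that fit), 3 higher, ELK4 among them (0.15, limma adjusted p = 0.0415), and ELK3 lower (-0.21, limma adjusted p = 0.0017). Of the other tested genes, 6 were above 0 and 5 below, the list's median being -0.04, and 5 of the 12 had an unadjusted p under 0.05, against 18.7% of all genes. SPIB had a log2 fold change of 0.22 and ELF4 of -0.22 (limma adjusted p = 0.439 and 0.168), and ELK4, with the highest mean of the list, 0.11. Neither the 6 factors tested nor the other ETS genes had fold changes of 1 sign.

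**Figure D4:**
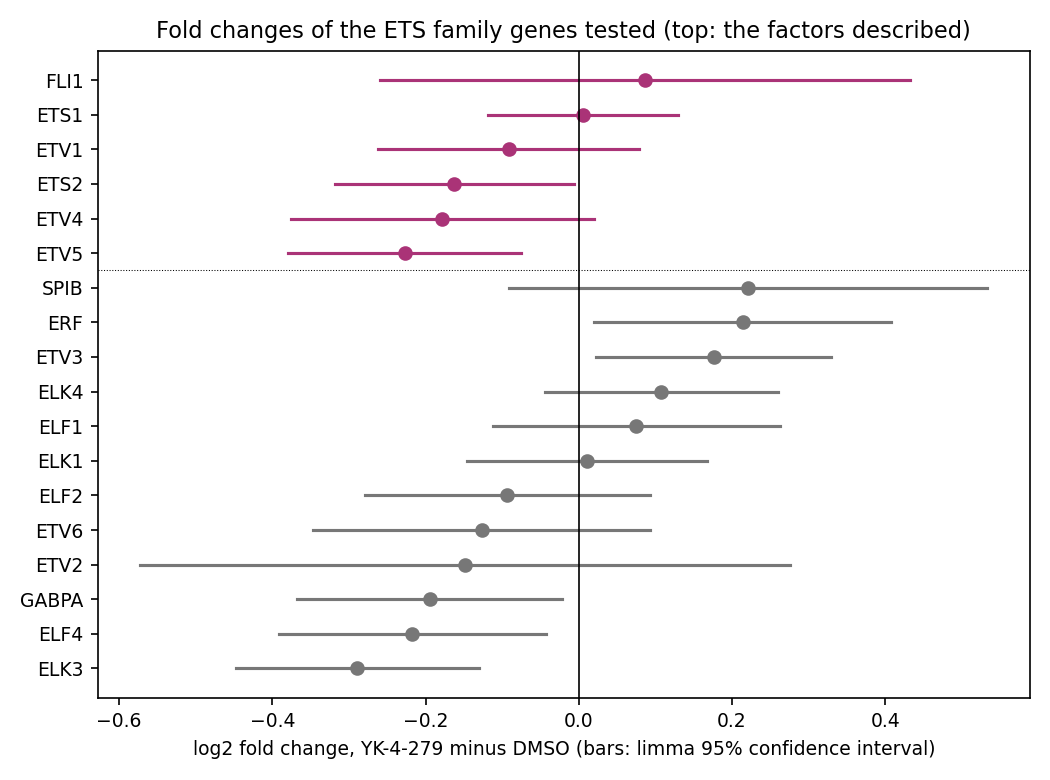
Log2 fold change of YK-4-279 minus DMSO (x axis) with limma 95% confidence intervals for the 6 factors tested (above the dotted line) and the 12 other ETS family genes tested (below it). The intervals of ETV5 and ETS2 lie below 0 and those of FLI1, ETS1, ETV1 and ETV4 include it. ELK3, at -0.29, is the lowest of the 18.

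The ERK pathway output genes, which are induced by the same signaling as the PEA3 genes, showed no called gene among 10 tested, against 3.41% of all genes. Of these 10, 5 were above 0 and 5 below, with a median of 0.01. By limma 2 of them had an unadjusted p under 0.05, against 18.7% of all genes. SPRY4, a feedback inhibitor of receptor tyrosine kinase signaling, had 1020, 1127 and 1045 normalized counts in DMSO and 877, 923 and 934 with YK-4-279 (log2 fold change -0.22, SE 0.07, limma adjusted p = 0.103). CCND1, which encodes cyclin D1, and DUSP4, an ERK phosphatase gene, had -0.16 and 0.17 on that scale (adjusted p of 0.142 and 0.430 by limma). EPHA2, an ephrin receptor gene with the highest mean of the list, had 0.11. Without DMSO replicate 1, 3 of the 10 were called (13.1% of all genes in that fit), 1 higher and 2 lower, the latter being SPRY4 (-0.25, limma adjusted p = 0.0014) and CCND1 (-0.18, limma adjusted p = 0.0032).

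Among 16 regulators and partners of the factors, JUN alone was called, 1 of 16 against 3.41% of all genes. JUN encodes an AP-1 subunit that binds DNA next to ETS factors at composite sites, and it had 8008, 9331 and 8793 normalized counts in DMSO and 11552, 11566 and 11119 with YK-4-279. All treated libraries lay above all controls. The log2 fold change was 0.39 (SE 0.06, limma adjusted p = 0.0069), and JUN was called in 14 of 17 alternatives, the exceptions being the fit without the trend and those without YK-4-279 replicate 1 or 2, with an adjusted p of up to 0.109. DHX9, the helicase whose binding to EWS-FLI1 the compound was reported to block, had 10480, 8936 and 8969 normalized counts in DMSO and 7756, 8267 and 8055 with YK-4-279, a log2 fold change of -0.23 (SE 0.07, limma adjusted p = 0.0735). FOXO1, whose reads include those of the PAX3-FOXO1 transcript, had -0.25 (limma adjusted p = 0.128), and PAX3, which shares that transcript and is named after its value was seen, had 0.07 (limma adjusted p = 0.616). CIC and KDM3A, singled out after their values were seen because of their links to the PEA3 genes and ETS1, had fold changes of -0.01 and -0.03 on the log2 scale (adjusted p of 0.956 and 0.893 by limma). Without DMSO replicate 1 CIC had -0.05 and KDM3A turned positive, at 0.09, with neither called. The list's median was -0.01, with 7 genes above 0 and 9 below, and 5 of the 16 had an unadjusted p under 0.05, against 18.7% of all genes. Without DMSO replicate 1 there were 6 calls (13.1% of all genes in that fit), 3 in each direction, DHX9 (-0.16, limma adjusted p = 0.0037) and FOXO1 (-0.14, limma adjusted p = 0.0470) among those lower.

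Of 22 genes widely reported as targets of ETS1 or ERG, many of them proteases and endothelial genes, 15 passed the filter. Of the 15, 3 were called, 2 higher and 1 lower, against 3.41% of all genes. By limma 5 of the 15 had an unadjusted p under 0.05, against 18.7% of all genes. HMOX1, which encodes heme oxygenase, rose from 166, 246 and 232 to 320, 351 and 296 (log2 fold change 0.60, SE 0.14, limma adjusted p = 0.0320). ITGB3, an integrin subunit gene, fell from 641, 626 and 574 to 442, 491 and 446 (log2 fold change -0.42, SE 0.08, limma adjusted p = 0.0171). Neither gene overlapped between groups, and each was called in 12 of 17 alternatives. Leaving out any YK-4-279 library left 0 of the list called. With a replicate block 2 higher and 0 lower genes were called, so the call of ITGB3 was lost. MMP14, the membrane protease gene with the highest mean of the list, had -0.00031 on the log2 scale. TEK, which is also an endothelial marker, had -0.38 (limma adjusted p = 0.128). The median of the 15 was 0.10, with 9 above 0 and 6 below. These genes answer to many other factors, and ETS1 or ERG binding was not measured in these libraries.

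**Figure D5:**
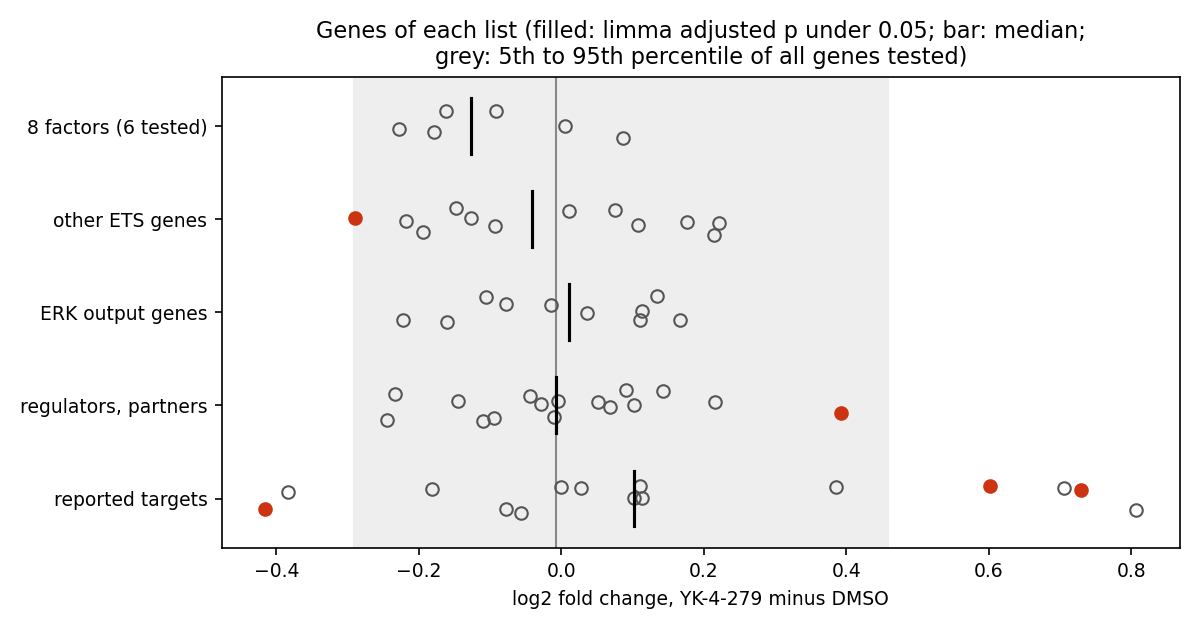
Log2 fold change of YK-4-279 minus DMSO (x axis) for each gene tested of 5 gene lists (y axis, points spread vertically for legibility). Filled points have a limma adjusted p under 0.05, black bars are list medians, the grey line is the median of all genes tested and the grey band their 5th to 95th percentile, -0.29 to 0.46. The 6 factors lie inside the band, and the filled points include ELK3, JUN, ITGB3 and HMOX1.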

How the data were processed

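PolyA RNA was sequenced from 3 DMSO and 3 YK-4-279 libraries of Rh30 cells. Per the labels and the methods, the authors made directional libraries, used BBDuk for trimming, STAR 2.7.9a for alignment to hg38 and gene counts, and DESeq2 1.44.0. What they deposited is a normalized signal: the gene's reads over a size factor of the library. Every sample column was used. Of 35269 rows, 1 without a gene name, holding at most 6 reads per library, was left out. Values divided by that of 1 read were whole, within 0.01, for 100% of values, and these recovered reads served the count tests.

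The test was limma 3.58.1 under R 4.3.3, using lmFit and a trended eBayes, on log2(normalized count + 1). It covered the 13930 genes whose mean over the 6 libraries reached 10, and two-sided p-values were adjusted over all of them (Benjamini-Hochberg). Fold changes on this scale understate changes of low genes. Ratios of factors were tested by exact permutation. Samples were grouped by their labelled treatment. No 2 libraries of a group agreed within sampling noise (chi-square per degree of freedom of at least 2.40). Alternatives were pseudocounts of 0.5 and 10, no filter or a mean of at least 100, TMM and quantile scaling, no trend, a replicate block, GC content and length correction (available for 98.4% of genes), leaving out each library, edgeR 4.0.16 and DESeq2 1.42.0 on recovered reads. The code was tested on simulated data.

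Members and lists were chosen with earlier results of these data known. The text names the 8 factors, each gene of a list with an adjusted p under 0.05, its highest mean and its 3 largest changes among means of at least 100, the 3 genes most like each factor, and overlapping genes. Some genes that this rule names are not reported here. Positions are from GENCODE v44, promoter sequences from RefSeq.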

Additional observations from a re-analysis of the deposited data

How the results depend on the processing

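The number of factors called was 0 with all libraries and in 15 of 17 alternatives. It was 2 with GC content and length removed (1964 of 13705 genes called) and without DMSO replicate 1 (1827 of 13960). In these fits ETV4 had -0.27 and -0.29, and ETV5 -0.24 and -0.17, on the log2 scale. Over left-out libraries the number of factors called ranged from 0 to 2, ETV4 from -0.29 to -0.12 and ETV5 from -0.26 to -0.17. Over all alternatives the adjusted p-values of ETV4 ran from 6.5e-04 to 0.566 and those of ETV5 from 0.0054 to 0.307. ETS2 and ETV1 kept their direction and stayed uncalled in all 17, with ETS2's adjusted p-values between 0.0567 and 0.513. Over left-out libraries ETV1 ranged from -0.16 (without DMSO replicate 2) to -0.026 (without DMSO replicate 1). Over left-out libraries, ETS1 turned negative without DMSO replicate 2 (-0.031) and YK-4-279 replicate 3 (-0.0013), with a highest value of 0.031 among them (0.064 over all alternatives, with quantile scaling), and FLI1 without YK-4-279 replicate 1 (-0.0053, highest 0.25). The log2 ratio of ETV1 to ETV4 turned negative without DMSO replicate 2 (-0.045, highest 0.26), and that of ETV4 to ETV5 without DMSO replicate 1 (-0.12, highest 0.14). FEV, at 7 reads against 1, had a DESeq2 fold change of 2.66 on the log2 scale.

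Genes called over the whole table numbered 475, and 279 with quantile scaling, 33 without the trend, 1964 with GC content and length removed, and 19 to 1827 over left-out libraries. More were higher than lower without the trend (30 against 3) and without YK-4-279 replicate 1, 2 or 3 (15 against 4, 16 against 9 and 28 against 18), and more were lower in all other fits. The fit with a replicate block gave 180, with 0 factors called. The deviations of same-numbered libraries from their group means had correlations of -0.098, -0.027 and -0.027. DMSO replicate 1 weighs on all 3 DMSO deviations, so these values cannot show whether the numbers pair the samples. Other ETS genes called were 0 with TMM, quantile scaling, no trend, the replicate block and edgeR, 3 with GC content and length removed, and 0 to 4 over left-out libraries. ERK output genes called were 2 with GC content and length removed and 0 to 3 over left-out libraries. Regulators and partners called were 2 with quantile scaling and with edgeR, 0 without the trend, 5 with GC content and length removed, 3 with DESeq2, and 0 to 6 over left-out libraries. Reported targets called were 2 with the replicate block (2 higher, 0 lower) and with quantile scaling (1 higher, 1 lower). They were 4 with GC content and length removed, 0 without the trend and 0 to 3 over left-out libraries. The causes were not tested. After ERG, FEV and FLI1 had the fewest reads of the 8 factors, and ERG cannot be placed below the limit that 0 reads allow.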
